A study of Homo sapiens with 12 samples.

Results

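The circular RNAs (circRNAs) of the distal long arm of human chromosome 4 and the genes that give rise to them, their hosts, were followed in HEK293 human embryonic kidney cells. A circRNA belonged to the region when its back-splice junction started at or beyond 130000000 on chromosome 4 of hg19. The table of experiment 1 held 327 such circRNAs of 29693 in all, and the table of experiment 2 held 361 of 26796. Together these were 528 different circRNAs of 44042 in both tables, and they carried 85 host names, of which 83 had a row in the gene tables. The region was chosen from earlier results of experiment 2, in which its genes were lower in the inducible line than in parental cells, and the question behind the choice was whether the line may have lost a copy of it. DNA copy number was not measured, so every value of experiment 2 for these genes is given below as a description without a test. CircRNAs and hosts that start under 130000000 on the same chromosome (943 and 953 circRNAs, 242 hosts) served as reference.

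There were 12 libraries, 3 in each of 4 groups. Every group except the parental one is the HEK293_Flp In/TO △Fox2_Flag_mFox1 line, which descends from a clone deficient in RBFOX2 and carries HA-Flag-tagged mouse Rbfox1 behind a promoter switched on by doxycycline. Experiment 1 compared untreated cells of this line with cells after induction, for which the protocol gives 0.5 µg/ml doxycycline for 2 weeks. Doxycycline and RBFOX1 change together between its arms, so their parts cannot be told apart there. Experiment 2 compared parental HEK293 cells given doxycycline with induced cells of the line, and RBFOX1, RBFOX2 and descent from the clone all change together between its arms, so their parts cannot be told apart there. The line is 1 clone, and nothing in the labels says that replicates were separate cultures, so the spread behind each p-value may be only technical. In bulk RNA, fewer cells that express a gene and less of its RNA per cell cannot be told apart.

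RBFOX1 was listed at 0 reads in all 3 parental libraries. It stood at 40.2 ± 0.704 CPM (counts scaled by TMM-adjusted library size; SD, n = 3) in induced cells of experiment 2, and at 3.77 ± 0.584 and 39.3 ± 0.394 CPM in uninduced and induced cells of experiment 1. RBFOX2 was at 183.5 ± 0.0715 CPM in parental cells and at 50.8 ± 4.76 to 53.7 ± 3.90 CPM in the line. Gene counts totalled 34025315 to 55298749 per library in experiment 1 and 37663525 to 50261916 in experiment 2, and back-splice reads 10004 to 22661 and 18945 to 28691. Of 7 HEK293 markers, 6 had a row, with a summed level of 1004 to 1383 CPM over all libraries. The marker NEFM, a neurofilament gene, was at 36.0 ± 2.34 CPM in parental cells and at most 0.504 ± 0.112 CPM in the groups of the line. Summed markers of haematopoietic cells, fibroblasts and hepatocytes reached at most 1.87, 5.88 and 0.453 CPM. The mitochondrial ribosomal RNA MT-RNR2 took 21.7 to 24.1% of counts in experiment 1 and 0.0286 to 0.0638% in experiment 2, so the experiments' libraries differ in makeup, and levels set side by side across them come from tables scaled separately.

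A circRNA forms when the spliceosome joins an exon's end backwards, to its own start or to that of an exon upstream, which leaves a covalently closed loop without a cap or a poly(A) tail. It is made from the same precursor RNA as the linear messenger RNA of its host, so its amount depends on how much of the host is transcribed, on how often the back-splice is used and on how slowly the loop is lost. The distal long arm of chromosome 4 holds genes with varied tasks: chromatin remodelling (SMARCA5), ribosome recycling (ABCE1), ubiquitin ligation (FBXW7), DNA repair (NEIL3) and cell adhesion (FAT1). Several of them are arranged head to head, with the starts of a gene on either strand a short distance apart.

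The stretches between 3 such pairs of starts are shown because the paired genes can be compared at one position. They are RefSeq sequence of build GRCh38.p14, plus strand, written 5′ to 3′, and lie between the RefSeq starts of both genes. Capitals mark a GC box (GGGCGG or CCGCCC) or a CCAAT box (CCAAT or ATTGG), searched as exact letters on both strands, and the motifs do not overlap each other. The pairs are ANAPC10 and ABCE1 (chr4:145098220-145098310), RWDD4 and TRAPPC11 (chr4:183659186-183659292), and CFAP97 and SNX25 (chr4:185204001-185204236).
ANAPC10/ABCE1: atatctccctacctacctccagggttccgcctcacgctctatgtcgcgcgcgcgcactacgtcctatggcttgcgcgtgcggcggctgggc
RWDD4/TRAPPC11: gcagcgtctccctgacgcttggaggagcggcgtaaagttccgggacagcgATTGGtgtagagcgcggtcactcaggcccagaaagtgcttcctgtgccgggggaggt
CFAP97/SNX25: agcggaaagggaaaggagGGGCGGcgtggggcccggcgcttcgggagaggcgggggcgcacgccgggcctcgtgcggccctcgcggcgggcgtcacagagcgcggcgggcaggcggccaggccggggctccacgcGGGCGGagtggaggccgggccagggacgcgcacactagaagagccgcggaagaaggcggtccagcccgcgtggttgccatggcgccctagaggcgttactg
The stretch of 91 bases between ANAPC10 and ABCE1 held neither motif. That of 107 bases between RWDD4 and TRAPPC11 held 1 CCAAT box. At least 1 is held by 18.98% of the 35116 RefSeq promoters in the same number of bases before their start. That of 236 bases between CFAP97 and SNX25 held 2 GC boxes, and 42.06% of promoters hold at least 1 over the same length.

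In experiment 2, host genes of the region were mostly lower in the inducible line than in parental cells. Over 83 tested hosts the median log2 fold change was -0.68, a level of 62.6% of parental, with the middle of the hosts between -0.92 and -0.36. The groups did not overlap and the line was lower for 69 hosts and higher for 7, against 34.7% and 33.3% of all genes tested. The edgeR quasi-likelihood test called 66 hosts lower and 6 higher, against 32.9% and 32.1% of all 17945 genes tested. The same contrast chose the region, so nothing is read from these counts. The mean of induced cells was 40 to 70% of the parental mean for 49 of 83 hosts in the region and for 27 of 242 reference hosts on chromosome 4. This band holds the region's own median and comes from the same contrast. Its share over all genes was not counted, so nothing is read from it either. The reference hosts had a median log2 fold change of -0.13, hosts on other chromosomes of 0.03 and all genes of -0.01. Genes of the region without a circRNA in the tables (86 tested) had a median of -0.67, close to that of the hosts.

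**Figure D1:**
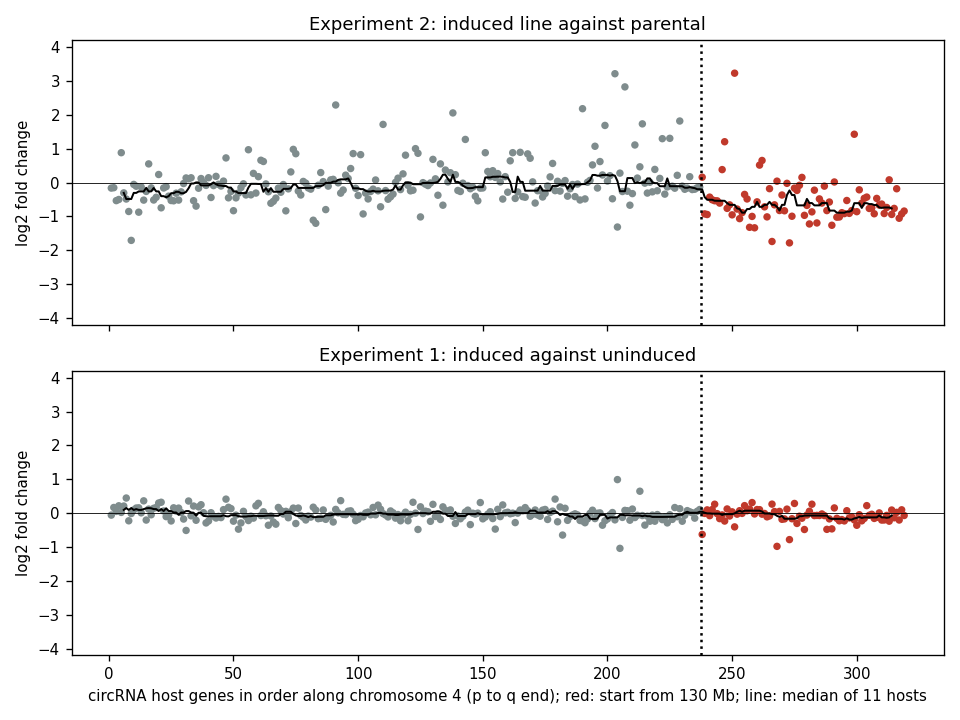
Log2 fold change of gene counts for 82 hosts of the region (red) and 237 reference hosts (grey) in order along chromosome 4, with the median of 11 neighbouring hosts as a line, in experiment 2 (top) and experiment 1 (bottom). To the right of the dotted line at 130 Mb the median line lies below 0 in the top panel and near 0 in the bottom panel. The region medians were -0.68 over all 83 hosts tested in experiment 2 and -0.07 over the 82 tested in experiment 1.

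The hosts on either side of the threshold were read in order. Just inside the reference lie MFSD8, ABHD18, LARP1B, JADE1 and SCLT1, and their log2 fold changes in experiment 2 were 0.17, -0.21, -0.20, -0.15 and -0.14. The host nearest to the threshold inside the region is SLC7A11, the cystine importer, with its first back-splice start at 139100371. Its levels in parental libraries 1, 2 and 3 were 81.3, 69.9 and 85.1 CPM, and 98.5, 88.9 and 76.1 CPM in induced libraries, and the groups overlapped. The next hosts were ELF2, a transcription factor, at -0.93, NAA15, the auxiliary subunit of an N-terminal acetyltransferase, at -0.94, SETD7, a lysine methyltransferase, at -0.43 and MGST2, a microsomal glutathione transferase, at -0.51. The tested genes without circRNAs between the threshold and ELF2 all had lower mean levels in the line, by differing amounts. NOCT, also called nocturnin, had a log2 fold change of -1.11. C4orf33 had a log2 fold change of -0.35 and PCDH18, a protocadherin, of -0.88. PCDH10, another protocadherin, went from 14.2 to 0.566 CPM. PABPC4L, a relative of the poly(A)-binding proteins, had 1742, 2192 and 2373 reads in the parental libraries and 0 in the induced ones, which makes it at least 1736-fold lower against a floor of 3 reads over the group.

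The role lists below hold hosts and other genes of the region. For each the number of negative log2 fold changes in experiment 2 is given with no test, to be read beside 72 of 83 for the hosts of the region and 9087 of 17945 for all genes, and nothing particular to a list is read from it. In the list of RNA, ribosome and translation 12 of 12 tested genes were negative, with a median of -1.03. ABCE1, which splits ribosomes after termination, stood at 798, 735 and 768 CPM in parental libraries and at 383, 351 and 366 CPM in induced ones. All 3 induced libraries lay well below the lowest parental one, and the log2 fold change was -1.07. GATB, a subunit of the mitochondrial glutamyl-tRNA amidotransferase, was at 69.0 ± 3.95 and 20.6 ± 1.04 CPM. NAF1, an assembly factor of H/ACA ribonucleoproteins, was at 33.1 ± 0.986 and 14.5 ± 0.901 CPM.

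Of 14 chromatin and transcription genes 13 were negative, with a median of -0.48. SMARCA5, the ATPase of ISWI remodelling complexes, was at 714.9, 689.8 and 713 CPM in parental libraries and at 365, 357 and 370 CPM in induced ones. NR3C2, the mineralocorticoid receptor, was the gene that ran the other way, at 27.8, 28.7 and 33.2 CPM in parental and 43.9, 43.7 and 40.5 CPM in induced libraries. Among ubiquitin and protein degradation genes 9 of 10 were negative, with a median of -0.77. FBXW7, the substrate receptor of an SCF ubiquitin ligase, was at 69.4 ± 2.89 and 44.0 ± 0.933 CPM. SH3RF1, a RING-type ligase, was at 42.6 ± 2.504 and 43.1 ± 1.86 CPM, with groups that overlapped.

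Of 7 tested genes of DNA repair, centromere and mitosis 7 were negative, with a median of -0.83. NEIL3, a DNA glycosylase, was at 74.9 ± 1.19 and 49.1 ± 0.960 CPM, NEK1, a kinase of the DNA damage response, at 84.8 ± 3.30 and 41.8 ± 2.15 CPM, and CENPU, a kinetochore protein, at 197.5 ± 5.25 and 104.7 ± 5.62 CPM. Of 13 membrane traffic genes 12 were negative, with a median of -0.76. LRBA, a BEACH domain protein and the host with the most circRNAs (76), was at 306.4 ± 16.4 and 186.3 ± 10.8 CPM. Of 15 metabolic and mitochondrial genes 13 were negative, with a median of -0.74.

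Of 16 adhesion and cytoskeletal genes 14 were negative, with a median of -0.87. FAT1, a giant cadherin, was at 604.3, 661.1 and 650.1 CPM in parental libraries and at 351.2, 330.9 and 324.3 CPM in induced ones. DCHS2, another large cadherin, was at 9.27 ± 0.643 and 2.69 ± 0.547 CPM. GPM6A, a neuronal membrane glycoprotein, was higher, at 9.54 ± 0.522 and 25.6 ± 0.912 CPM, as was DCLK2, a doublecortin-like kinase, at 7.56 ± 0.463 and 11.9 ± 0.931 CPM.

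Of 14 signalling genes 10 were negative, with a median of -0.23. HHIP, a membrane protein that binds Hedgehog ligands, was at 0.885, 0.662 and 0.894 CPM in parental libraries and at 8.68, 8.47 and 5.79 CPM in induced ones. INPP4B, a phosphoinositide phosphatase, was at 9.41 ± 0.185 and 21.7 ± 1.61 CPM. The lowest host of all, TLL1, a metalloprotease, went from 7.04 ± 0.355 to 0.0709 ± 0.0769 CPM. LRAT, the retinol acyltransferase, is no host and was at 206, 238 and 302 reads in parental and 0 in induced libraries, at least 204-fold lower against the same floor.

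**Figure D2:**
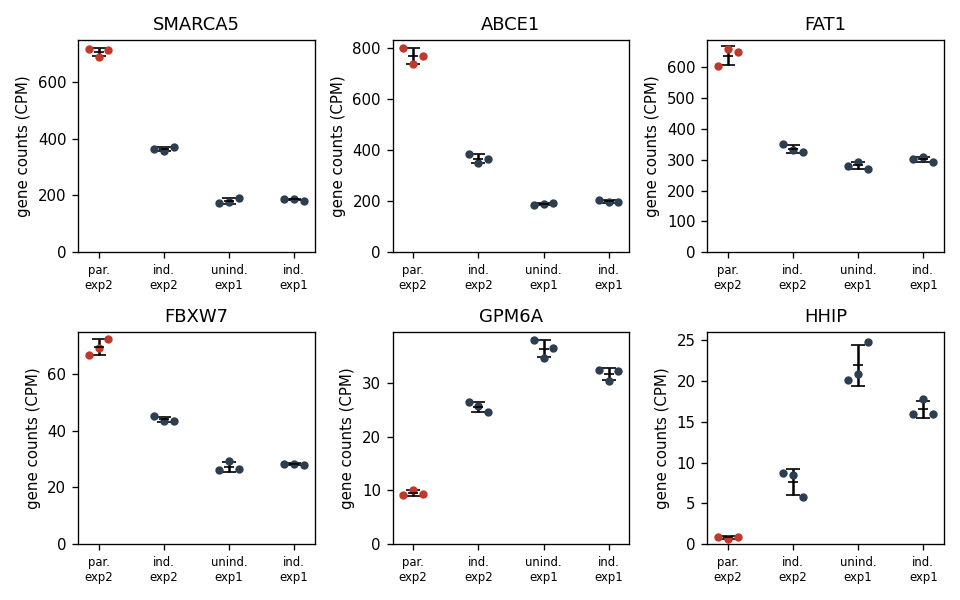
Gene counts (CPM, linear axes from 0) of 6 hosts of the region in each library (points), with group mean and SD, for parental (red) and the 3 groups of the inducible line (dark). SMARCA5, ABCE1, FAT1 and FBXW7 are highest in parental cells, and GPM6A and HHIP are lowest there (9.54 and 0.814 CPM).

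The genes of a head-to-head pair did not always move together. ANAPC10, a subunit of the anaphase-promoting complex, had a log2 fold change of -0.78 beside -1.07 for ABCE1. RWDD4 had -1.04 beside -0.92 for TRAPPC11, a tethering factor of vesicle traffic. CFAP97 was at 134.7 ± 7.52 and 142.3 ± 5.65 CPM, with overlapping groups, while SNX25, a sorting nexin that starts 237 bases away on the other strand, was at 93.9 ± 2.05 and 48.9 ± 0.345 CPM. The sequences of these pairs are printed above, and a motif match there is a description only.

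Shares within a library do not depend on how libraries were scaled. Of all gene counts of chromosome 4 hosts, the region took 32.7, 32.8 and 32.95% in the parental libraries and 24.5, 24.3 and 24.3% in the induced libraries of experiment 2. The exact (Clopper-Pearson) 95% binomial interval of parental library 3, which covers counting error only, was 32.87 to 33.03%. The region's share of back-splice reads on chromosome 4 was 40.7 ± 0.959% in parental cells and 30.1 ± 2.05% in induced cells. Both shares were lower in every induced library than in any parental one.

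**Figure D3:**
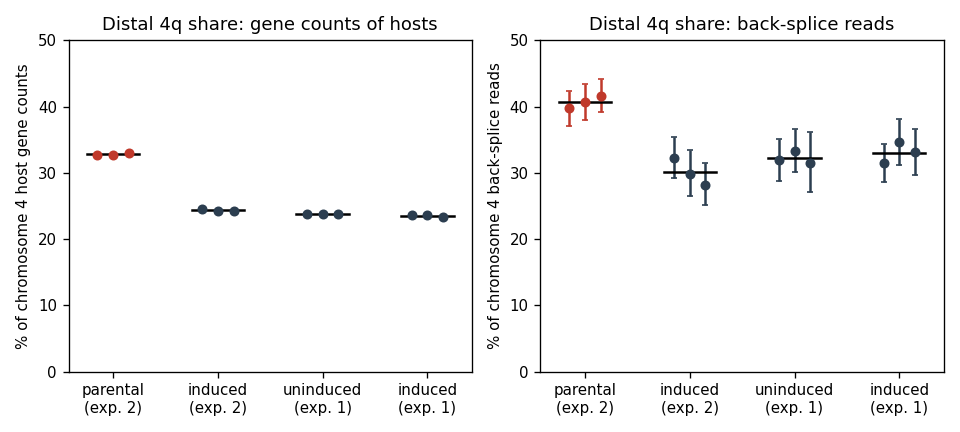
Share of the region in chromosome 4 host gene counts (left) and in chromosome 4 back-splice reads (right) for each library (points, with exact 95% binomial intervals) and group mean (bar). Parental libraries (red) lie at 32.7 to 32.95% on the left, and the 9 libraries of the inducible line at 23.4 to 24.5%.

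Experiment 1 did not choose the region and allows a test of induction within the line, that is of doxycycline and RBFOX1 together. The groups did not overlap for 22 hosts lower and 13 higher on induction, against 19.6% and 20.5% of all genes tested. The edgeR quasi-likelihood test called 15 of 82 hosts lower and 4 higher at an adjusted p under 0.05, against 10.4% and 10.5% of all 18978 genes tested, and the median log2 fold change was -0.07. Reference hosts on chromosome 4 had a median of -0.04, with 32 of 237 called lower and 19 higher. The count of lower hosts fell to 7 without induced library 1 and also without induced library 3, and the count of higher hosts ranged from 1 to 8 as single libraries were left out. The count of 8 came without uninduced library 3, and that of 1 without uninduced library 2, induced library 1 or induced library 3.

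The change with the smallest adjusted p was that of SLC7A11. Its levels were 127.3, 114.3 and 134.2 CPM in uninduced and 82.7, 80.5 and 80.1 CPM in induced libraries, and the groups did not overlap. The log2 fold change was -0.63 (SE 0.0654, edgeR adjusted p = 0.00067). DCHS2 fell from 6.13 ± 0.340 to 3.56 ± 0.216 CPM (log2 fold change -0.78, SE 0.0973, edgeR adjusted p = 0.0014). CBR4, a carbonyl reductase of mitochondrial fatty acid synthesis, fell from 46.8 ± 4.44 to 33.9 ± 2.12 CPM (edgeR adjusted p = 0.0048). TMEM154, at 1.32 ± 0.149 and 0.667 ± 0.120 CPM, and TMEM144, at 11.7 ± 0.697 and 8.38 ± 0.130 CPM, also fell.

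HHIP, which was higher in the line than in parental cells, fell on induction from 21.9 ± 2.51 to 16.5 ± 1.05 CPM (edgeR adjusted p = 0.015), and lost its call without induced library 1 or 3 (edgeR adjusted p = 0.075 and 0.070). DDX60L, a DExD/H-box helicase relative, lost its call without the same libraries (edgeR adjusted p = 0.065 and 0.074). The subunits of soluble guanylate cyclase moved apart: GUCY1B3 fell from 32.1 ± 0.526 to 26.0 ± 0.976 CPM, and GUCY1A3 rose from 20.1 ± 0.854 to 24.5 ± 1.56 CPM. TENM3, a teneurin of cell adhesion, rose from 71.5 ± 0.726 to 83.4 ± 1.73 CPM. FNIP2, a folliculin partner, rose from 35.1 ± 0.802 to 42.2 ± 2.40 CPM, and TMEM184C from 25.3 ± 1.03 to 31.4 ± 1.2 CPM, a call lost without induced library 1 (edgeR adjusted p = 0.050). The 3 other rises also lost their calls in part: GUCY1A3 and TENM3 without uninduced library 2 or induced library 1 or 3 (edgeR adjusted p = 0.085, 0.096 and 0.057 for GUCY1A3, and 0.059, 0.059 and 0.053 for TENM3), and FNIP2 without uninduced library 2 or induced library 3 (edgeR adjusted p = 0.056 and 0.062).

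By role, adhesion and cytoskeleton had 5 of 14 tested genes called lower and 1 higher on induction, signalling 3 and 2 of 14, and membrane traffic 2 and 2 of 13. RNA and translation had 2 of 11 lower, DNA repair 2 of 7, and chromatin, ubiquitin and metabolism 1 each, of 14, 9 and 13, with 0 higher in these 5 lists, beside 10.4% lower and 10.5% higher over all genes tested. The DNA repair calls were NEIL3 and CENPU, and both were lost without uninduced library 1, induced library 1 or induced library 3 (edgeR adjusted p = 0.058, 0.061 and 0.089 for NEIL3, and 0.067, 0.067 and 0.13 for CENPU), that of CENPU also without uninduced library 2 (edgeR adjusted p = 0.0665). The hosts ABCE1, SMARCA5 and FAT1 did not pass the test within experiment 1, while others that stood low against parental cells, such as CBR4 and CENPU, did. ABCE1 was at 189.3 ± 3.48 and 199.0 ± 5.63 CPM, SMARCA5 at 180.9 ± 9.98 and 185.9 ± 3.35 CPM, and FAT1 at 282.1 ± 11.6 and 302.1 ± 7.44 CPM in uninduced and induced cells.

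The share of the region in chromosome 4 host counts was 23.8 ± 0.045% in uninduced and 23.5 ± 0.099% in induced cells (two-sided exact permutation p = 0.1, the smallest that 3 against 3 libraries allow). With the region begun at 140 Mb, SLC7A11 moved to the reference. ELF2, whose circRNAs span 139981478 to 140060651, was then counted on both sides. The log2 ratio of the host count shares moved from -0.016 to 0.0001148 with this choice. The share of back-splice reads was 32.2 ± 0.944% and 33.03 ± 1.56% (two-sided exact permutation p = 0.7). Uninduced cells, which were untreated, had a host share near that of induced cells of either experiment. It was below the 32.8 ± 0.139% of parental cells, which helped choose the region. This comparison across tables was not tested.

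For each library the median difference of hosts from the parental mean was taken in the region and in the reference. Their difference on the log2(CPM + 0.5) scale, over 82 hosts of the region and 237 reference hosts, was -0.57 ± 0.0733 (SD, n = 3) in uninduced cells, -0.63 ± 0.0147 and -0.56 ± 0.0079 in induced cells of experiments 1 and 2, and -0.0053 ± 0.0065 in parental cells themselves. All 9 libraries of the line lay between -0.66 and -0.53. The parental libraries lie near 0 by construction, since their own mean is the baseline. They also helped choose the region, so the values of experiment 1 are not independent of that choice. Whether copy loss, the state of the clone or another cause sets this offset was not tested.

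Back-splice reads of the region were fewer in the line as well. In experiment 2 there were 1731 reads in parental and 728 in induced libraries, or 12.7 ± 0.895 and 6.45 ± 1.15 CPM of gene counts. Reads of the reference were at 18.59 ± 1.728 and 14.87 ± 1.587 CPM, and those of all circRNAs at 583 ± 48.37 and 550.5 ± 44.65 CPM. The 37 circRNAs with at least 10 reads in all and a read in at least 3 libraries came from 21 hosts, and their median log2 fold change was -1.03, against -0.43 for 80 reference circRNAs and -0.19 for all 2381 tested. Groups did not overlap and the line was lower for 10 of the 37 and higher for 1, against 10.9% and 8.27% of all circRNAs tested. The edgeR test called 5 lower and 0 higher, against 0.966% and 0.714% of all circRNAs tested, and since this contrast chose the region nothing is read from that. Depth limits the circRNA test: in simulated counts of experiment 2 it recovered 0.0% of 2-fold and 39.5% of 4-fold changes.

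The 10 circRNAs with the most reads held 1894 of the 3962 reads of the region. The circRNA of SMARCA5 at 144464662 to 144465125 (plus strand, 2 exons, 269 bases spliced) had 64, 55 and 77 reads in parental and 23, 12 and 27 in induced libraries of experiment 2. That of FAT1 at 187627717 to 187630999 (minus strand, 1 exon of 3283 bases) had 71, 54 and 85 reads in parental and 17, 23 and 9 in induced libraries. For FBXW7, at 153332455 to 153333681 (minus strand, 2 exons, 620 bases), the reads were 55, 42 and 44 against 16, 4 and 7. In each of these 3 the induced libraries lay below all parental ones.

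The circRNA of SNX25 at 186168448 to 186188309 (4 exons, 662 bases) had 33, 19 and 25 reads in parental and 1, 2 and 3 in induced libraries, a log2 fold change of -3.36 beside -0.94 for its host. In experiment 1 it had 14, 12 and 10 reads in uninduced and 13, 11 and 12 in induced libraries. MND1, a partner of meiotic recombinases, gave a circRNA at 154315414 to 154318485 with 11, 18 and 17 reads against 3, 3 and 0. Its call was lost with the DESeq2 test and with other choices listed at the end.

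For the others of these 10 circRNAs, NR3C2 excepted, the groups of experiment 2 overlapped. ARHGAP10 gave a circRNA at 148778704 to 148803083 with 32 reads in parental and 33 in induced libraries, and one at 148860976 to 148876525 with 32 and 26. Its gene counts were 57.7 ± 3.18 and 38.8 ± 1.86 CPM. The circRNA of NR3C2 at 149356256 to 149358014, 1 exon, had 5, 3 and 13 reads in parental and 15, 12 and 14 in induced libraries, without overlap after scaling, and its host was higher too. NEIL3 had 43 and 22 reads, of which 29 were in parental library 3, and GALNT7, a glycosyltransferase, had 27 and 22.

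**Figure D4:**
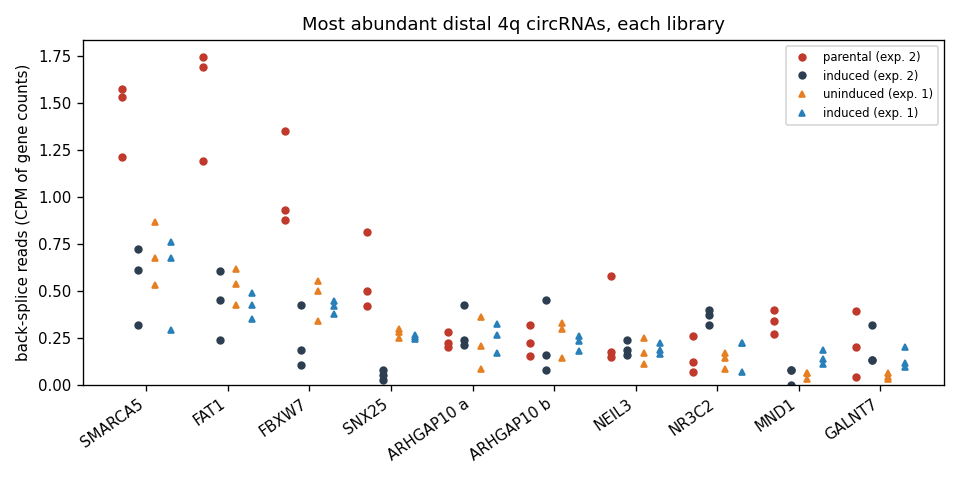
Back-splice reads (CPM of gene counts) for the 10 circRNAs of the region with the most reads, each library a point, by group (the labels a and b are the circRNAs of ARHGAP10 in order of read number). Parental libraries (red) stand above the induced ones for SMARCA5, FAT1, FBXW7, SNX25 and MND1, and the groups mix for both ARHGAP10 circRNAs.

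Set against its host in the same libraries, the median circRNA of the region had a log2 difference of -0.17 in experiment 2, beside -0.26 in the reference and -0.21 over all. In the model of circRNA against host, edgeR called 0 of 37 lower or higher, where 0.0% and 0.0857% of all were called. Its unadjusted p was under 0.05 for 5 of the 37, beside 4 of 80 in the reference and 182 of 2335 over all. In simulated counts this model recovered 0.0% of 2-fold and 36.0% of 4-fold changes, so most changes of these sizes were missed there. The simulation drew on circRNAs of all chromosomes with a fixed spread, so recovery for abundant circRNAs of the region may differ. With limma in place of edgeR, on log2 levels with an added prior count, the median was 0.21. That count weighs more on circRNAs with few reads than on hosts, so the direction depends on tool and prior together. Leaving out parental library 2 gave -0.57. Leaving out induced library 1 gave -0.58, and doing so for induced library 2 gave -0.32. The read filter was applied again in each of these fits, so the circRNAs under the median can differ. Its size thus depends on the libraries and on the circRNAs kept, and these were not told apart.

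**Figure D5:**
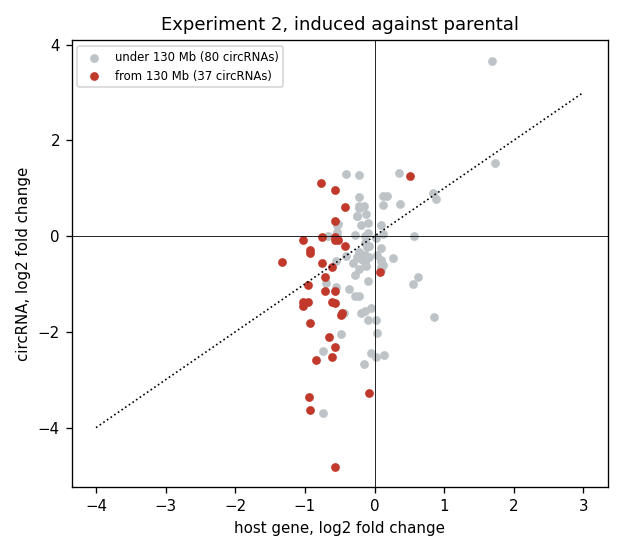
Log2 fold change of each tested circRNA against that of its host gene in experiment 2, for 37 circRNAs of the region (red) and 80 reference circRNAs (grey), with a dotted line of equal change. Most red points lie left of 0 and below it, and the medians of the circRNAs are -1.03 and -0.43.

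On induction in experiment 1, back-splice reads of the region were 688 in uninduced and 815 in induced libraries, 5.14 ± 1.10 and 5.72 ± 0.216 CPM. Of 21 tested circRNAs of 15 hosts, edgeR called 0 in either direction, as it did for 0.0% of all circRNAs. In simulated counts of experiment 1 this test recovered 1.5% of 2-fold and 28.5% of 4-fold changes. Its unadjusted p was under 0.05 for 2 of the 21, beside 0 of 61 in the reference and 77 of 1701 over all. The 2 in the region were MND1, with 3, 3 and 1 reads in uninduced and 10, 6 and 5 in induced libraries, and GALNT7, with 2, 3 and 1 against 5, 5 and 9 (edgeR adjusted p = 0.97 for both). The groups of both did not overlap, so 2 of 21 lay apart with higher values and 0 with lower, against 6.35% and 4.0% of all circRNAs tested. The median log2 fold change was -0.12, and against the host 0 of 21 were called, where 0.0% of all were.

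In structure, the tested circRNAs of the region had a median of 2 exons and 439 spliced bases in experiment 2. Medians were 4 exons and 535.5 bases in the reference, and 3 exons and 460 bases over all tested circRNAs. With untested circRNAs included, region and reference both had a median of 4 exons, with 552 and 594 bases. The introns before and after the tested circRNAs of the region were longer, with medians of 26685 and 19111 bases. Those were 12837 and 8816 in the reference and 10885 and 9507.5 over all tested circRNAs. These are descriptions, and circRNAs of 1 host share introns. In the region 59.0% of the 327 circRNAs in experiment 1 and 34.1% of the 361 in experiment 2 rested on 1 read, beside 60.1% and 37.85% of all circRNAs.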

How the data were processed

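RNA of 12 HEK293 libraries was counted in 2 experiments. The authors deposited, for each, a gene table and a circRNA table of raw counts, whole numbers without normalization as the values show. The submitters' processing notes name STAR 2.5.2b and the build GRCh37 (hg19) but give neither a role, and the circRNA caller is not given in the sources used here. Circular starts were changed to count from 1. Of 85 host names, 70 matched the symbol column, 10 an identifier table, 3 a RefSeq synonym and 2 no gene row.

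Gene counts were filtered (filterByExpr, minimum 10, total 15), scaled by TMM and tested per experiment with edgeR 4.0.16 (quasi-likelihood, R 4.3.3), with Benjamini-Hochberg adjustment over all features and a call under 0.05. CircRNAs with at least 10 reads in all and a read in at least 3 libraries were tested with the effective library sizes of the gene table. A model with library as a block compared circRNA with host. DESeq2 1.42.0, limma 3.58.1 and other settings were alternatives. The members, lists and tests were chosen with earlier results of these data known. Named genes were the 10 lowest and highest hosts of experiment 2, the 10 largest called changes of experiment 1, 5 hosts on either side of the threshold, genes at 0 in 1 arm with at least 5 CPM in the other, and the 4 most expressed genes of each role list. Further hosts named were chosen after their values were seen. Scripts were tested on simulated data: 2-fold gene changes were recovered in 87.0% (experiment 1) and 93.0% (experiment 2) of cases.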

Additional observations from a re-analysis of the deposited data

How the results depend on the processing

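Over the alternatives run, the median of the region's hosts in experiment 2 stayed negative. Begun at 120 Mb, the region had in experiment 2 a host median of -0.54, a difference from the reference of -0.42, 12 hosts called higher, a circRNA median of -0.64 and a circRNA difference of -0.19, and log2 share ratios of -0.33 (host counts) and -0.35 (back-splice reads). Begun at 140 Mb, with ELF2 counted on both sides, the share ratio of host counts was -0.44 in experiment 2 and 0.0001148 in experiment 1. As a share of all chromosomes the ratios were -0.76 (host counts) and -0.90 (back-splice reads) in experiment 2 and -0.02761 (host counts) in experiment 1. Without the 3 hosts with the most counts on either side they were -0.4115 and -0.03965 in experiments 2 and 1. Against other chromosomes the host difference was -0.71 in experiment 2 and -0.069 in experiment 1, and the circRNA difference of experiment 2 was -0.8499. With circRNAs of at least 10 reads only, the back-splice share ratio of experiment 1 turned from 0.036 to -0.085; the cause was not tested.

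With single libraries left out, the host median of experiment 1 ranged from -0.08712 to -0.04044, its lower calls from 7 to 17 and its higher calls from 1 to 8. Filters were applied again each time, so the genes or circRNAs under a median can differ. In experiment 2 the circRNA median ranged from -1.347 to -0.823, its difference from the reference from -1.02 to -0.38, the circRNA against host median from -0.58 to -0.12 and its difference from the reference from -0.36 to 0.30 (main value 0.087). With limma the latter 2 were 0.21 and 0.38. The cause was not tested. Log2 fold changes of experiment 2 that changed sign ranged, with single libraries left out, from -0.0202 to 0.0677 (SH3RF1), -0.1035 to 0.2511 (TMEM154), and for circRNAs from -0.04195 to 0.5066 (ARHGAP10 at 148778704), -0.9388 to 0.3881 (ARHGAP10 at 148860976, 0.03531 with TMM on the circRNA table), -0.9485 to 0.2597 (NEIL3) and -0.621 to 0.7196 (GALNT7). The call of the MND1 circRNA was lost with DESeq2, with the minimum lowered to 5 reads and 2 libraries together, with the replicate block and without any 1 library except induced library 2.

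Replicate numbers gave no sign of pairing: correlations of deviations at the same number were 0.19, -0.11 and 0.019 in experiment 1 and 0.0048, 0.030 and -0.016 in experiment 2. Unlike numbers reached 0.21 in experiment 1 (uninduced library 3 with induced library 2). Deviations from a mean of 3 libraries depend on each other, so these values cannot show that no pairing existed. With a replicate block 9 hosts were called lower in experiment 1, and the GALNT7 circRNA of experiment 2 had a log2 fold change of 0.07107. Few back-splice reads stand behind each circRNA value, which limits its precision.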
